A study of Homo sapiens with 6 samples.

Results

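Lipid droplet and triglyceride handling genes, whose products build, coat, empty or export cytosolic triglyceride stores, were examined in SND1 knockdown cells labelled HepG2 under fluorouracil. They were FABP1, MLXIPL, ME1, DGAT1, DGAT2, PLIN2, PLIN3, PLIN5, PNPLA2 and MTTP. A gene was taken from the array row whose platform annotation gave its symbol and no other, and the row with the highest mean over all arrays would have stood for a gene with several. Rows were thus to be chosen by their mean signal over 6 arrays, but each of the 10 genes had 1 such row, so 10 of 22465 named genes entered and the measured level decided nothing. The genes themselves were chosen with earlier results of these data known, so their changes are a description and not independent support for any of them.

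One line was described as a stable HepG2 line carrying the hairpin shSND1-#1 in the pLKO vector. The line it was set against was described as a stable HepG2 line carrying the pLKO vector alone, called sh-Vector. Both had 3 arrays, and all 6 samples had received 5-Fu (fluorouracil, a pyrimidine analogue) at 6 µg/mL for 48 h. SND1 (Tudor-SN) binds RNA, cuts hyperedited RNA and coactivates transcription, and HepG2 is an established line from a liver tumour of hepatoblastoma type. A single hairpin was used and every sample had the drug, so loss of SND1, other effects of that hairpin and differences between the stable lines cannot be told apart, and no effect of the drug itself can be read.

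Hepatocytes take up and synthesise fatty acids, join them to glycerol as triglyceride and store that triglyceride in lipid droplets, which are bounded by a phospholipid monolayer studded with coat proteins. Perilipins on the droplet surface limit the access of lipases, and lipases release the stored fatty acids for oxidation or for loading into very-low-density lipoprotein. HepG2 cells are widely used to study droplets because they store triglyceride readily.

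The values were log2 signals made with robust multi-array average (RMA), for which a difference of 1 stands for a doubling of signal. The SND1 cluster, annotated also with its intronic transcript, had log2 signals of 5.82, 5.69 and 5.88 in shSND1 cells, against 7.44, 7.25 and 7.16 in sh-Vector cells. This left 35.6% of the sh-Vector signal, a log2 change of -1.49 (SE 0.09) with limma's adjusted p = 0.0166 over all transcript clusters. Without any array other than sh-Vector replicate 3 the adjusted p lay between 0.0773 and 0.249, with a change between -1.41 and -1.53. Array medians over all clusters were 3.65 to 3.74 in shSND1 cells and 3.58 to 3.69 in sh-Vector cells. Over the named genes, the SD of the difference between shSND1 replicate 1 and sh-Vector replicate 3 was 0.14, below that of each pair within a group (0.147 to 0.193), while the other 8 pairs of a shSND1 and a sh-Vector array had 0.15 to 0.24.

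The HepG2 label was set against liver markers. Of 12 measured hepatocyte or hepatoblastoma markers, 6 were in the lowest quartile of named genes (under the 25th percentile): ALB, AFP, APOB, FGA, FGB and FGG, none of which passed the 18.1th percentile on any array. Of the other liver markers, APOA2 and APOH lay above the 75th percentile, and APOA1, FOXA2, SERPINA1 and TTR lay between the 25th and the 75th. Of 7 enterocyte markers, 4 lay above the 75th percentile and 2 (FABP2 and SI) under the 25th. The 4 were CDH17 at the 99.4th percentile, VIL1 at the 95.9th, and CDX2 and ALPI at the 78.4th. APOA4 lay at the 38.5th. Of 6 simple epithelial markers, 5 lay above the 75th. FABP1, MTTP and both DGAT genes serve enterocytes as well as hepatocytes. Probes differ in response, so these percentiles describe the arrays and do not identify the cells, and the signals of different genes are not ranked against each other here.

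In shSND1 cells FABP1 was the 1 gene of the 10 that passed the test over all named genes, and it fell. DGAT1, PNPLA2 and MLXIPL had lower signals on every shSND1 array than on any sh-Vector array, and PLIN2 had higher signals on every shSND1 array, but none of these 4 genes passed the adjusted threshold of 0.05. The groups overlapped for DGAT2, PLIN3, PLIN5, ME1 and MTTP. At the adjusted threshold 1 of the 10 genes was lower and 0 were higher, against 0.138% lower and 0.0312% higher of all named genes (0.169% in all). Groups did not overlap for 5 of the 10 genes, 4 lower and 1 higher, against 17.9% of all named genes. At an unadjusted limma p under 0.05, 5 of the 10 were lower and 1 was higher, against 12.2% of all named genes in both directions. These shares are given as background only, because the genes were chosen with the results known. The median change was -0.17 over the 10 genes and 0.01 over all named genes, and the median absolute change was 0.24 and 0.07.

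**Figure D1:**
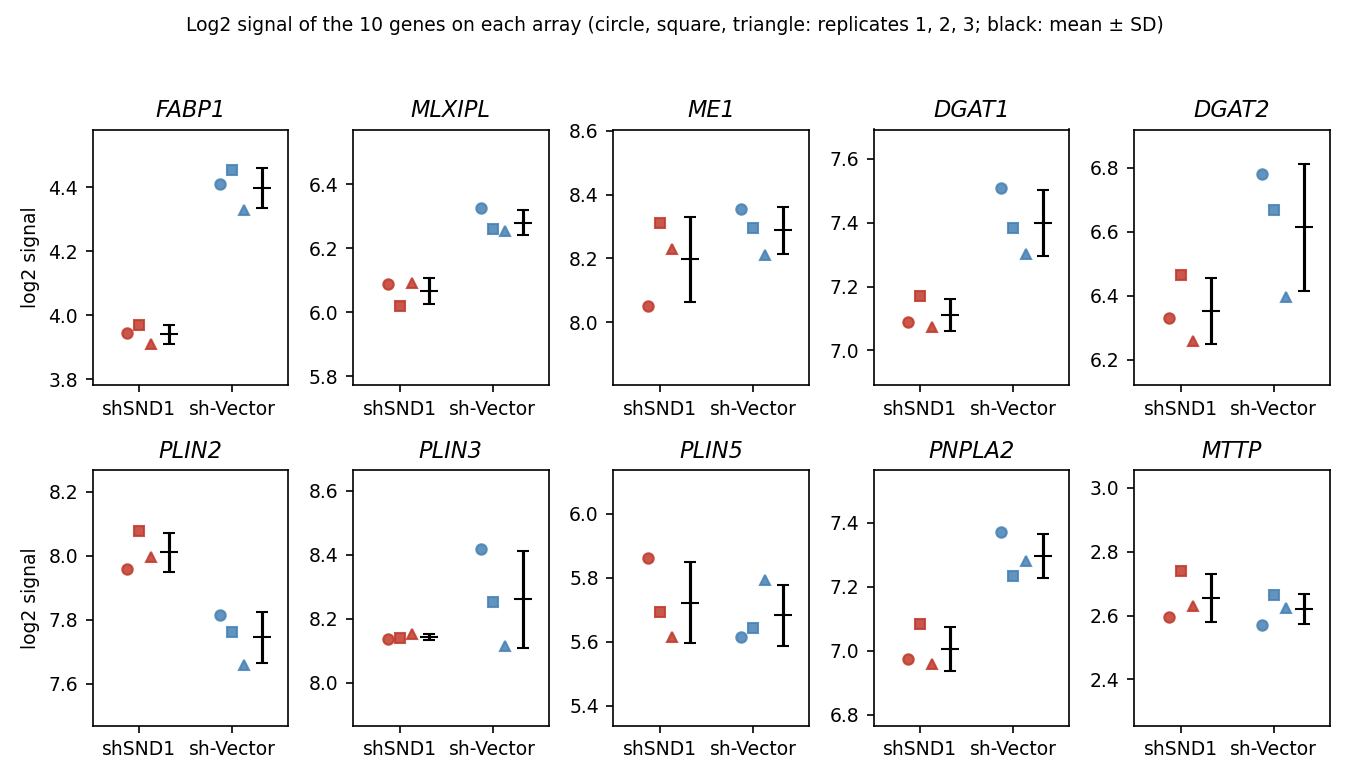
Log2 signal of the 10 genes on each of the 6 arrays, with shSND1 cells in red left of sh-Vector cells in blue, each replicate with its own symbol, and the mean ± SD in black (n = 3); every panel has the same vertical span. The groups are apart for FABP1, MLXIPL, DGAT1, PLIN2 and PNPLA2, and PLIN2 is the 1 gene among them with higher shSND1 signals.

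The upstream sequences of FABP1, PLIN2 and PNPLA2 are shown because these are the gene that passed the test, the gene whose signals lay on the other side, and the lipase whose product acts on the droplets that PLIN2 coats. They are the 250 bases before each gene's start in RefSeq (GRCh38.p14), 5′ to 3′ on the gene's strand: chr2:88128063-88128312 on the minus strand, chr9:19127493-19127742 on the minus strand and chr11:818664-818913 on the plus strand. Capitals mark the nuclear receptor hexamer AGGTCA on either strand (TGACCT on the printed strand), the E-box CACGTG and the TATA box TATAAA on the printed strand. A CCAAT box on either strand was searched too and had no match in these 3 sequences.
FABP1: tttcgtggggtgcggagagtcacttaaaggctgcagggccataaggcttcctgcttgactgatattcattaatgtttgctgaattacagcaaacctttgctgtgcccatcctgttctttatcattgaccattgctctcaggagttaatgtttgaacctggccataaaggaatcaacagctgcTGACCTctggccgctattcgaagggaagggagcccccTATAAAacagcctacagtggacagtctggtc
PLIN2: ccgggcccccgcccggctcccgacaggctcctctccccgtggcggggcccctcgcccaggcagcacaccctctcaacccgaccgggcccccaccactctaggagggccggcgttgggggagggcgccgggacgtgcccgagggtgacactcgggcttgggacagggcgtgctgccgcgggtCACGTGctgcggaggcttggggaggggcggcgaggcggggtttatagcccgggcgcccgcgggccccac
PNPLA2: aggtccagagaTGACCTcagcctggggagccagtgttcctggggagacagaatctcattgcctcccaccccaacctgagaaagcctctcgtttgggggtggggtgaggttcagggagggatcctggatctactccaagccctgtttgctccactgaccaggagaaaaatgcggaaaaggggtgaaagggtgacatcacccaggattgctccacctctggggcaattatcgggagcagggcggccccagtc

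The sequence before FABP1 holds TGACCT from position -68 and TATAAA from position -31, counted back from the gene start. That before PLIN2 holds neither but has CACGTG from position -69, and that before PNPLA2 has TGACCT from position -239. Over 35114 RefSeq upstream sequences of the same length, 12.1% held AGGTCA on either strand, 6.8% TATAAA and 6.35% CACGTG. The G and C content was 48% before FABP1, 78% before PLIN2 and 58.4% before PNPLA2, with a median of 58% over all, and CpG dinucleotides numbered 4, 28 and 4. The direct repeat read by PPAR with RXR was searched only as the exact letters AGGTCA and AGGTCA with any 1 base between them. That string was matched on either strand in none of the 8 listed genes with an upstream sequence and in 0.0171% of all sequences. Imperfect copies of the repeat were not searched. A match or its absence in this window is a description of the letters and says nothing about binding.

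FABP1 encodes the liver fatty acid binding protein, a small cytosolic carrier that brings long-chain fatty acids to sites of esterification and oxidation. Its log2 signal was 3.94, 3.97 and 3.91 in shSND1 cells, against 4.41, 4.45 and 4.33 in sh-Vector cells. The groups stood 0.36 apart at their nearest arrays, while the arrays of a group spanned 0.06 in shSND1 and 0.12 in sh-Vector cells. FABP1 fell 1.37-fold (log2 change -0.46, SE 0.06, limma adjusted p = 0.0414), to 72.8% of the sh-Vector signal (95% confidence interval 66.6 to 79.7). Its size of change exceeded that of 99.5% of named genes. The signal was dim, at the 38th percentile of named genes, where RMA values understate changes, and no detection calls were used.

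The fall of FABP1 kept its size, but its call held in only 4 of 13 alternatives. The limma adjusted p was 0.0402 with quantile normalization run again and 0.0376 with a variance trend and robust fitting. With the mean of all clusters of a gene it was 0.0424. Leaving out 1 array at a time gave changes of -0.49 to -0.43, and the adjusted p passed the threshold only without sh-Vector replicate 3 (0.0496). It was 0.177 without sh-Vector replicate 1 and 0.273 without sh-Vector replicate 2. Without shSND1 replicates 1, 2 and 3 it was 0.183, 0.168 and 0.178. With arrays centred on their medians the change was -0.51 with an adjusted p of 0.0618. FABP1 is also an enterocyte gene, and the mean log2 signal of the 7 enterocyte markers was 5.17 to 5.23 in shSND1 and 5.27 to 5.38 in sh-Vector arrays. None of the 7 passed, but ALPI (-0.37) and VIL1 (-0.25) were lower in shSND1 cells at the unadjusted threshold. CDX2 (-0.15), APOA4 (-0.08) and CDH17 (-0.03) did not reach that threshold, and FABP2 and SI were near the floor. The enterocyte list thus did not fall evenly. None of the 12 hepatocyte or hepatoblastoma markers passed either. SERPINA1 (-0.43) and APOH (-0.44) were lower at the unadjusted threshold, but the list did not fall together. APOA2 and TTR had changes of 0.08 each, FOXA2 had 0.06 and APOA1 had -0.07. ALB, AFP, APOB, FGA, FGB and FGG, in the lowest quartile, had changes of -0.01 to 0.02. Of the 6 simple epithelial markers CDH1, encoding E-cadherin, passed and fell, with 7.63 ± 0.03 in shSND1 and 8.58 ± 0.12 in sh-Vector cells (SD, n = 3 each; change -0.95, SE 0.07, limma adjusted p = 0.00954). KRT19 had -0.33, KRT18 -0.23, KRT8 -0.19, EPCAM -0.003 and KRT7 0.12, none of which passed. The mean log2 signal was 3.6 to 3.7 in shSND1 and 3.69 to 3.74 in sh-Vector arrays over the hepatocyte or hepatoblastoma markers, and 8.92 to 8.98 in shSND1 and 9.19 to 9.23 in sh-Vector arrays over the epithelial ones. These markers were named after their values were seen. The part of these markers in the FABP1 result was not tested. In bulk samples, fewer cells of a type and less RNA per cell cannot be told apart.

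Genes that share FABP1's step were listed as fatty acid uptake, binding and activation, of which 17 of 18 were measured. Of the 16 other than FABP1, 0 passed the adjusted threshold in either direction, with 5 lower and 1 higher at an unadjusted limma p under 0.05, against 7.34% lower and 4.85% higher of all named genes. FABP3, the muscle-type binding protein of the same family, had signals of 6.14 ± 0.05 in shSND1 and 6.61 ± 0.14 in sh-Vector cells (SD, n = 3 each), a change of -0.47 (SE 0.08) close to that of FABP1, with a limma adjusted p of 0.0831. It passed in 2 of 14 alternatives, with adjusted p = 0.0218 without the dimmest 40% of named genes and 0.045 with a variance trend and robust fitting. In the other 12 the adjusted p was 0.0537 to 0.316. ACSL5, an acyl-CoA synthetase of liver and gut, had a change of -0.41 (adjusted p = 0.112) and was picked after its value was seen. The other binding proteins FABP5 and FABP6 had changes of 0.03 and 0.10, and FABP2, FABP4 and the fatty acid receptor CD36 had mean signals of 1.22 to 1.34, near the floor of the arrays. The median change of the 16 genes was 0.01, equal at this precision to that of all named genes.

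MLXIPL encodes ChREBP, the glucose-sensing transcription factor that drives lipogenic genes in liver. Its signal was 6.09, 6.02 and 6.09 in shSND1 cells, against 6.33, 6.26 and 6.25 in sh-Vector cells, with the groups 0.16 apart and each group spanning 0.07. The change was -0.21 (SE 0.05, adjusted p = 0.179), or 86.2% of the sh-Vector signal. ME1, the cytosolic malic enzyme that supplies NADPH for fatty acid synthesis, had 8.05, 8.31 and 8.23 in shSND1 cells, against 8.36, 8.30 and 8.21 in sh-Vector cells. The ME1 groups overlapped, with shSND1 replicate 1 lowest and shSND1 replicates 2 and 3 inside the sh-Vector range, and the change was -0.09 (SE 0.08). That change was -0.02 without shSND1 replicate 1, -0.06 without sh-Vector replicate 1 and -0.15 without shSND1 replicate 2 or with arrays centred.

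The fatty acid synthesis list held 11 measured genes besides MLXIPL and ME1, and none passed at the adjusted or the unadjusted threshold. Their changes were negative for 9 genes and positive for 2, with a median of -0.06. SREBF1, the other main lipogenic transcription factor, had 6.12 ± 0.04 in shSND1 and 6.23 ± 0.06 in sh-Vector cells (SD, n = 3 each; change -0.11, SE 0.06, limma adjusted p = 0.498). FASN, fatty acid synthase, had a change of -0.05, ACLY, which makes cytosolic acetyl-CoA, -0.08, and MLX, the obligate partner of ChREBP, -0.12.

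DGAT1 and DGAT2 encode unrelated enzymes for the same last step, the joining of a fatty acid to diacylglycerol. DGAT1 had 7.09, 7.17 and 7.07 in shSND1 cells, against 7.51, 7.38 and 7.30 in sh-Vector cells. All shSND1 arrays lay below all sh-Vector arrays, by 0.13 at the nearest, and the sh-Vector arrays spanned 0.21. The change was -0.29 (SE 0.07, adjusted p = 0.162), or 82% of the sh-Vector signal (95% confidence interval 73.5 to 91.4). DGAT2 had 6.33, 6.46 and 6.26 in shSND1 cells, against 6.78, 6.67 and 6.39 in sh-Vector cells. Here sh-Vector replicate 3 lay below shSND1 replicate 2, so the groups overlapped, and the change was -0.26 (SE 0.10, adjusted p = 0.369). The DGAT2 change was -0.37 without sh-Vector replicate 3 and -0.18 without sh-Vector replicate 1.

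Of the triglyceride synthesis list, 13 genes other than DGAT1 and DGAT2 were measured, and none passed the adjusted threshold. At an unadjusted p under 0.05, 2 were lower and none higher, against 7.34% lower and 4.85% higher of all named genes. Of the 13 changes 9 were negative, with a median of -0.06, against 10578 negative of all 22465 and a median of 0.01. AGPAT1, which makes phosphatidic acid, had 6.55 ± 0.06 in shSND1 and 6.73 ± 0.09 in sh-Vector cells (SD, n = 3 each; change -0.19, SE 0.07, limma adjusted p = 0.319). The first acyltransferase of the pathway, GPAM, had a change of -0.03, and the phosphatidate phosphatase gene LPIN1 had -0.06.

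PLIN2, the perilipin that coats droplets in most cells that are not adipocytes, had 7.96, 8.08 and 8.00 in shSND1 cells, against 7.82, 7.76 and 7.66 in sh-Vector cells. It was the 1 gene of the 10 whose shSND1 arrays all lay above all sh-Vector arrays, by 0.14 at the nearest. The change was 0.27 (SE 0.06, adjusted p = 0.164), a 1.20-fold higher signal (120% of sh-Vector, 95% confidence interval 109 to 133). Leaving out single arrays gave 0.22 to 0.30, and centring the arrays on their medians gave 0.21, so the sign was the same in each of these settings. PLIN2 protein is known to be degraded when it is not bound to droplets.

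PLIN3, an exchangeable perilipin that moves from the cytosol onto new droplets, had 8.14, 8.14 and 8.15 in shSND1 cells, against 8.42, 8.25 and 8.11 in sh-Vector cells. The shSND1 arrays spanned 0.02 and lay inside the sh-Vector range of 0.30, and the change was -0.12 (SE 0.08), with -0.04 without sh-Vector replicate 1 and -0.19 without sh-Vector replicate 3. PLIN5, the perilipin of tissues that burn fat, had 5.86, 5.69 and 5.61 in shSND1 cells, against 5.61, 5.64 and 5.79 in sh-Vector cells. Its groups overlapped almost fully, the change was 0.04 (SE 0.08), and its sign turned with arrays centred (-0.02) and without shSND1 replicate 1 (-0.03). Within each array, PLIN2 minus PLIN3 was -0.18 to -0.06 in shSND1 and -0.60 to -0.45 in sh-Vector cells, a difference of 0.38 between the groups, which did not overlap. That difference is made of the changes of both genes given above, and the pair was set with them known, so it is no further result. For PLIN2 minus PLIN5 the ranges overlapped, at 2.10 to 2.39 in shSND1 and 1.87 to 2.20 in sh-Vector cells.

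The lipid droplet list held 14 further measured genes, and none passed the adjusted threshold. At an unadjusted p under 0.05, 2 were lower and none higher, against the same 7.34% and 4.85% of all named genes. Among the 14 changes 6 were negative and 8 positive, and the median was 0.01. BSCL2, encoding seipin at the contact between endoplasmic reticulum and droplet, had 6.46 ± 0.05 in shSND1 and 6.65 ± 0.03 in sh-Vector cells (SD, n = 3 each; change -0.18, SE 0.05, limma adjusted p = 0.223). The adipocyte perilipins PLIN1 and PLIN4 had changes of 0.14 each, with overlapping groups. The mean log2 signal of 6 adipocyte markers, which include both, was 3.72 to 3.86 in shSND1 and 3.69 to 3.78 in sh-Vector arrays. The defining ADIPOQ and FABP4 had means of 1.98 or less in shSND1 cells and 1.93 or less in sh-Vector cells. The markers LEP, PLIN1, PLIN4 and CIDEC had means over all arrays of 3.26, 4.57, 5.48 and 6.08.

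PNPLA2 encodes adipose triglyceride lipase, which starts the breakdown of stored triglyceride. Its signal was 6.97, 7.08 and 6.96 in shSND1 cells, against 7.37, 7.24 and 7.28 in sh-Vector cells. All shSND1 arrays lay below all sh-Vector arrays, by 0.15 at the nearest. The change was -0.29 (SE 0.06, adjusted p = 0.136), or 81.8% of the sh-Vector signal (95% confidence interval 73.9 to 90.4), with -0.33 to -0.25 when single arrays were left out. PNPLA2 had the second-lowest p of the 10 genes, at rank 295 of 22465, after FABP1 at rank 23. PLIN2 minus PNPLA2 within an array was 0.99, 0.99 and 1.04 in shSND1 cells, against 0.44, 0.53 and 0.38 in sh-Vector cells. That difference was 0.56 larger in shSND1 cells. Its groups could not overlap, because PLIN2 was higher and PNPLA2 lower on every shSND1 array, so their separation is no further result. DGAT1 minus PNPLA2 did overlap, at 0.09 to 0.12 in shSND1 and 0.02 to 0.15 in sh-Vector cells, as did DGAT1 minus DGAT2, at 0.71 to 0.82 and 0.72 to 0.91.

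**Figure D2:**
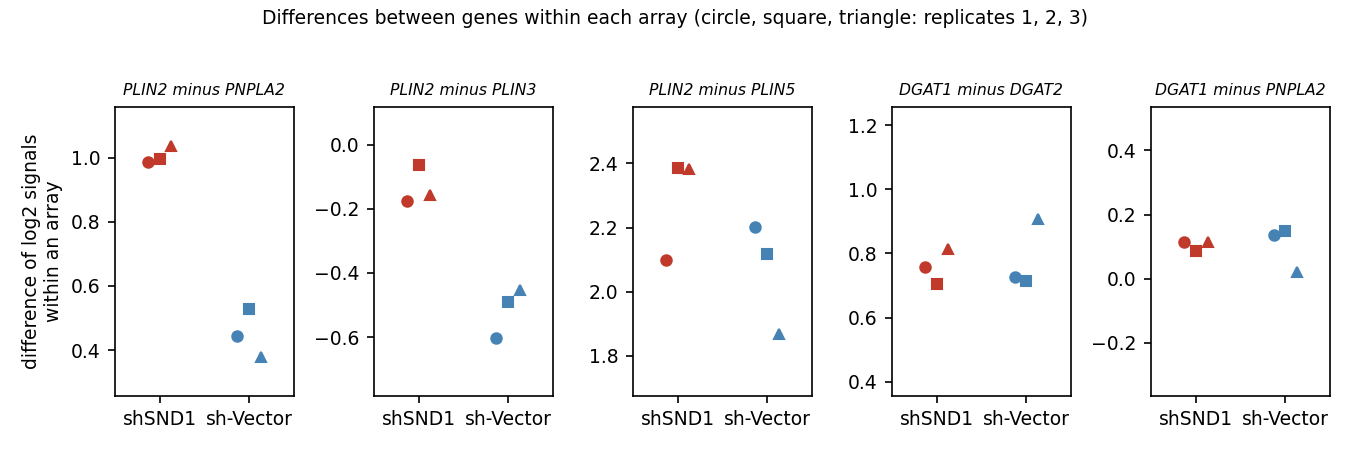
Difference between the log2 signals of 2 genes within each array (vertical axis, log2, the same span in every panel) for shSND1 cells in red and sh-Vector cells in blue, 3 arrays each. PLIN2 minus PNPLA2 and PLIN2 minus PLIN3 are higher on every shSND1 array, and the groups overlap in the other 3 panels. The separation of PLIN2 minus PNPLA2 follows from the signals of the 2 genes, which are apart in opposite directions. All pairs were set with the changes of these genes known. The offset of a panel reflects probe response and has no meaning.

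Of the triglyceride breakdown list, 8 genes other than PNPLA2 were measured. Against 0.138% lower and 0.0312% higher of all named genes at the adjusted threshold, 0 of the 8 were lower and 1 passed and rose. This was CES1, a liver carboxylesterase of the endoplasmic reticulum with triglyceride hydrolase activity, with 5.83 ± 0.05 in shSND1 and 5.39 ± 0.05 in sh-Vector cells (SD, n = 3 each; change 0.44, SE 0.06, limma adjusted p = 0.043). It passed in 4 of 14 alternatives, with limma adjusted p of 0.00912 to 0.0438. Its call ended without any single array, with adjusted p between 0.0537 and 0.281, and with arrays centred (0.11), while the change stayed between 0.38 and 0.46. CES1 has a near-identical pseudogene, so its signal is uncertain. The activator of PNPLA2, ABHD5, had a change of 0.00, and its inhibitor G0S2 had 0.15, with overlapping groups. The hormone-sensitive lipase gene LIPE had -0.12 and the monoglyceride lipase gene MGLL -0.16 (adjusted p = 0.394).

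MTTP encodes the microsomal transfer protein that loads triglyceride onto apolipoprotein B. Its signal was 2.59, 2.74 and 2.63 in shSND1 cells, against 2.57, 2.66 and 2.62 in sh-Vector cells, at the 18.9th percentile of named genes. The groups overlapped and the change was 0.03 (SE 0.06, 95% confidence interval -0.11 to 0.17), with a negative sign under renewed quantile normalization, with arrays centred and without shSND1 replicate 2. At a signal this near the floor a change would be compressed. Its partner APOB had 2.53 in both groups. Of the 7 other genes of lipoprotein assembly and export, none passed at either threshold, and APOC3, a lipoprotein lipase inhibitor, had 4.67 ± 0.08 in shSND1 and 4.80 ± 0.03 in sh-Vector cells (SD, n = 3 each; limma adjusted p = 0.438).

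**Figure D3:**
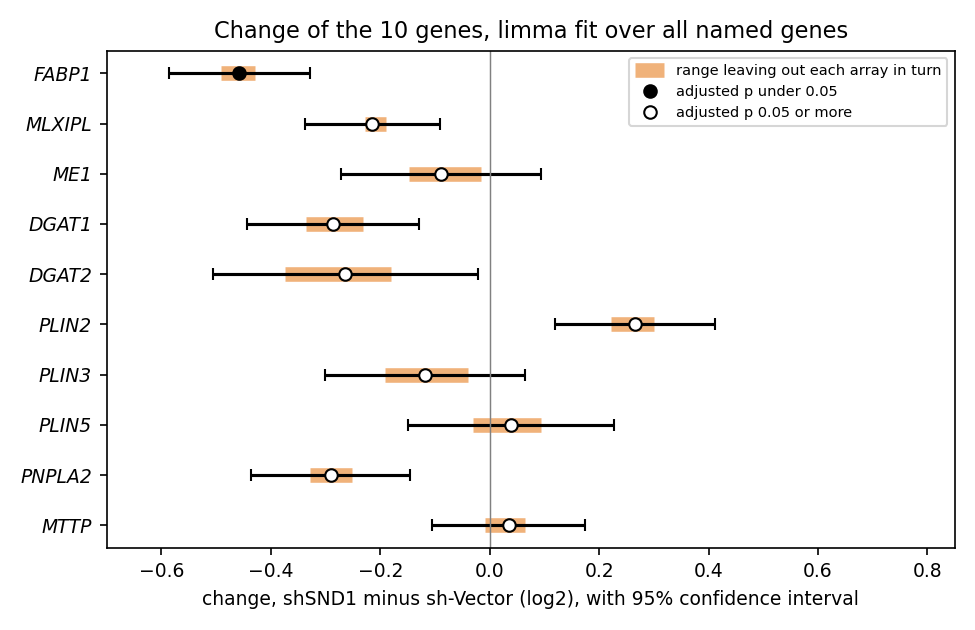
Change of each of the 10 genes, shSND1 minus sh-Vector on the log2 scale (horizontal axis), as points with 95% confidence intervals from limma; orange bars give the range when each array in turn was left out. FABP1 is the 1 filled point (adjusted p = 0.0414), and the intervals of ME1, PLIN3, PLIN5 and MTTP include 0.

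PPAR factors and genes of fatty acid oxidation, which use the fatty acids that lipases release, gave no call among 12 measured genes at the adjusted or the unadjusted threshold. PPARA, the receptor for fatty acids that drives oxidation genes and whose known targets in liver include FABP1 and PLIN2, had a change of 0.00. CPT1A, which commits fatty acids to mitochondria, had -0.02, and the coactivator PPARGC1A had 2.82 ± 0.08 in shSND1 and 2.97 ± 0.07 in sh-Vector cells (SD, n = 3 each; change -0.15, SE 0.07, limma adjusted p = 0.421), near the floor. The median change of the 12 was -0.01. Over all 7 lists together, 81 genes other than the 10 were measured. Of these 1 rose (CES1) and 0 fell, with 10 lower and 2 higher at an unadjusted p under 0.05, and 17 lower and 3 higher with groups that did not overlap. Over all named genes 0.138% were lower and 0.0312% higher at the adjusted threshold. At the unadjusted threshold 7.34% were lower and 4.85% higher, and 11.6% were lower and 6.33% higher without overlap.

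**Figure D4:**
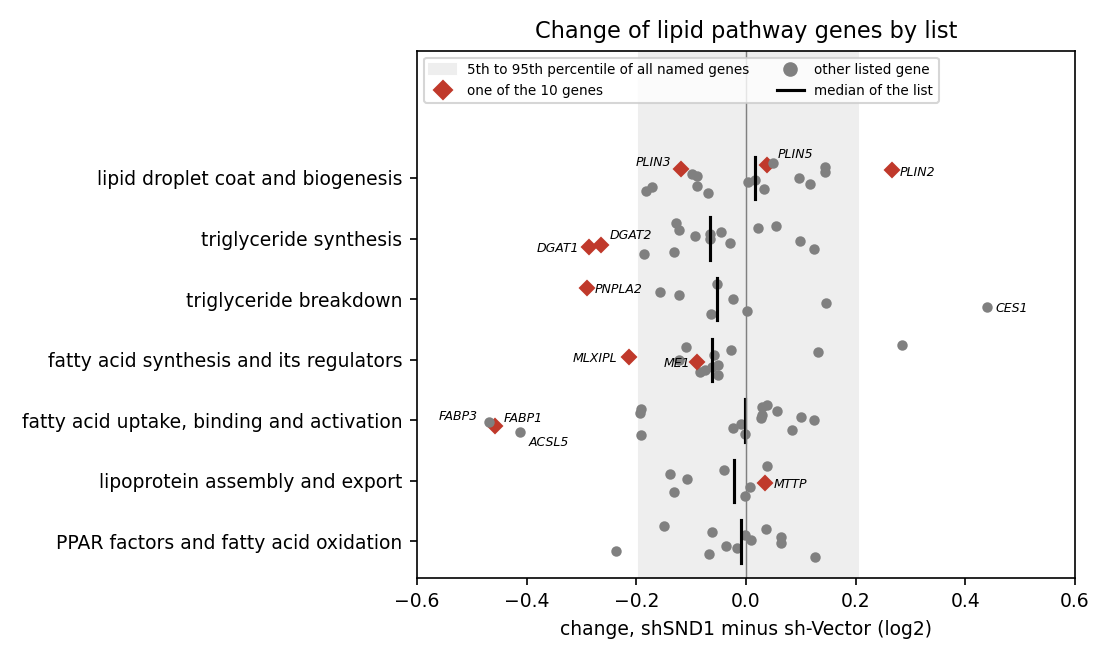
Change, shSND1 minus sh-Vector (horizontal axis, log2), of the measured genes of 7 lipid pathway lists, with the 10 genes as red diamonds, other genes in grey and a black bar at each list's median; the shaded band holds the 5th to 95th percentile of all named genes (-0.20 to 0.20). PLIN2, both DGAT genes, PNPLA2, MLXIPL and FABP1 lie outside the band, as do the other genes FABP3, ACSL5, ANGPTL4, CES1 and THRSP. Every list's median lies within 0.07 of 0.

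The 10 genes did not spread more between replicates than other genes: their median SD within a group was 0.08, against 0.09 for all named genes. Single arrays nevertheless had a place in the group. Within shSND1 cells, replicate 2 gave the highest signal for 7 of the 10 genes, and within sh-Vector cells replicate 1 did so for 7 and replicate 3 gave the lowest for 7. Over the 10 genes the mean absolute difference between sh-Vector replicates 1 and 3 was 0.167, and that between shSND1 replicate 1 and sh-Vector replicate 3, the lowest of the 9 pairs across groups, was 0.171. The other 8 pairs across groups differed by 0.176 to 0.297. The other 2 pairs of sh-Vector arrays differed by 0.09 and 0.11, and pairs of shSND1 arrays by 0.07 to 0.11.

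The patterns most like those of PLIN2 and FABP1 were sought among named genes above the median level, by the root mean square difference between profiles over 6 arrays after each was centred on its mean. For PLIN2 these were CA2 (0.03), a carbonic anhydrase, TRMT10A (0.03), a transfer RNA methyltransferase, and ARRDC4 (0.03), an arrestin-domain gene, against a median difference of 0.17 over 11231 candidates. For FABP1 they were C1orf116, HIGD2A and DES (0.03 each), against a median of 0.23. None of these 6 genes is in the lipid lists, and with 6 arrays in 2 groups such likeness includes the contrast itself.

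**Figure D5:**
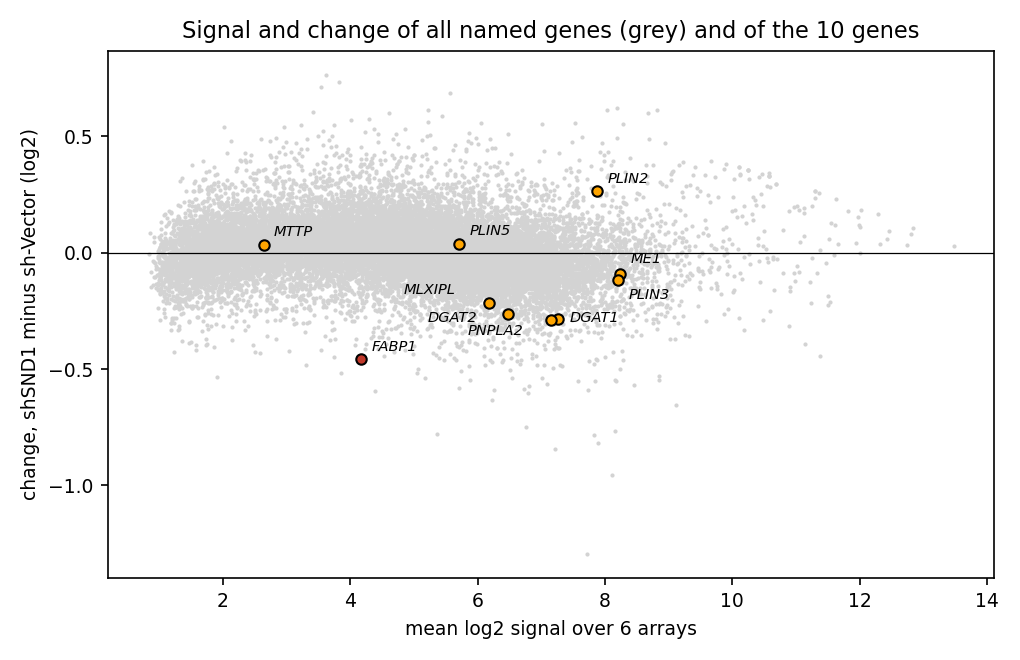
Mean log2 signal over 6 arrays (horizontal axis) against the change, shSND1 minus sh-Vector (vertical axis, log2), for all 22465 named genes in grey and the 10 genes as labelled points, with FABP1, past the threshold, in red. FABP1 lies at the lower edge of the genes of its level, and PNPLA2 and DGAT1 lie side by side at -0.29.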

How the data were processed

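RNA of 6 samples, 3 of each line, was hybridised to Affymetrix human arrays with transcript cluster probes. The deposited values are log2 signals made by the authors with RMA, per the submitters' processing notes. Its version, software and build are not stated in the labels used. No detection calls or scanner files were used. Of 70523 features, the 2995 outside transcript clusters were left out. GEO's platform annotation gave 1 symbol for 23781 of 67528 clusters, and the brightest cluster stood for a gene, giving 22465 named genes.

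Change is shSND1 minus sh-Vector, fitted in R 4.3.3 by limma 3.58.1 (lmFit, eBayes) to group alone, with Benjamini-Hochberg adjustment over all named genes (threshold 0.05). SD is over 3 arrays. No label names separate cultures, so the spread behind each p-value may be technical only, and 3 arrays per group limit the precision. The genes, lists, tests and the rule for named genes were chosen with earlier results of these data known. The rule named the 10 genes, SND1, list members past the threshold or else the list's non-member with the lowest p, and 3 genes of most similar pattern for the largest rise and fall. FASN, ACLY, MLX, GPAM, LPIN1, ABHD5, G0S2, LIPE, MGLL, PLIN1, PLIN4, the FABP family, PPARA, CPT1A and APOB were named for their known roles, after their values were seen. Of 95 listed pathway genes, 91 were measured, and the others were not analysed here. The fit was tested on simulated data. Figures used matplotlib 3.10.9.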

Additional observations from a re-analysis of the deposited data

How the results depend on the processing

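The number of named genes past the threshold was 38. It was 61 with quantile normalization run again, 15 with arrays centred on their medians, 271 without the dimmest 40% of named genes, 0 with a floor at the 30th percentile of values, 133 with a variance trend and robust fitting and 3 with the fit over all transcript clusters. It ranged from 0 to 35 when single arrays were left out. The count among the 10 genes was 1 (FABP1). This count stayed at 1 with quantile normalization run again, with a variance trend and robust fitting and with the mean of all clusters of a gene. It was 0 with arrays centred, without the dimmest genes, which removes FABP1 and MTTP, with the floor (FABP1 adjusted p = 0.104) and over all clusters (0.148), and 0 to 1 when single arrays were left out. Under 14 alternatives none of the other 9 genes passed, with the lowest adjusted p at 0.0514 (PNPLA2). The sign of MTTP turned with quantile normalization run again (-0.00823) and with arrays centred (-0.022), and its change ranged from -0.00778 to 0.0649 when single arrays were left out. The sign of PLIN5 turned with arrays centred (-0.0173), and its change ranged from -0.0301 to 0.0934 when single arrays were left out. The SND1 change ranged from -1.55 to -1.41 when single arrays were left out. With the replicate number as a block, 1 named gene and 0 of the 10 passed, FABP1 had an adjusted p of 0.234 and the SND1 change of -1.49 an adjusted p of 0.142. Same-numbered arrays had deviations from their group means that correlated at -0.36, 0.11 and -0.49, over named genes above the median level. Differently numbered arrays had -0.37 to 0.57, the highest for shSND1 replicate 1 with sh-Vector replicate 3. With 3 arrays per group these values cannot decide whether the samples were paired. The causes of these moves were not tested, except where the alternative itself removes genes or samples. Signals near the floor limit what MTTP, APOB and FABP1 can show.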
